A study of Sus scrofa with 6 samples.

Results

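The genes described here encode nuclear subunits of the mitochondrial respiratory chain and ATP synthase, together with a few proteins that share their gene symbols. Members were all genes with a single symbol in GEO's platform annotation that begins with NDUFA, NDUFB, NDUFC, NDUFS, NDUFV, UQCR, ATP5 or COX4 to COX8, or that is SDHA to SDHD or CYC1. Where a gene had several probe sets, the one with the highest mean was used. This gave 60 genes of 11079 that carry a single symbol, and the choice used no difference between groups. Of the 60, 51 encode structural subunits and 9 do not. The 9 are the assembly factor genes NDUFAF1, NDUFAF3, NDUFAF4, NDUFAF5, NDUFAF6 and NDUFAF7, the paralog gene NDUFA4L2, and ATP5S and ATP5SL, whose products are not built into the enzyme. Complexes were assigned by gene symbol alone, also for these 9. Complex I accounts for 38 members, complex II for 1, complex III for 2, complex IV for 6 and complex V for 13. Other subunit genes, such as SDHA, CYC1 and the COX4 genes, had no probe set under this rule and are not analysed here.

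RNA came from marrow mesenchymal stem cells, plastic-adherent stromal cells, grown from 4-month-old female pigs of the American Yorkshire breed. The mandibular cultures (3 arrays) were grown from marrow of the lower jaw at its symphysis, in the chin, and the tibial cultures (3 arrays) from marrow of the shin bone. All were at passage 0, and marrow was plated on plastic without sorting, so other adherent cells can be present. Per the design text, 3 pigs gave marrow of both kinds and cultures were grown to 80% confluence, while the labels number the arrays 1 to 3 within a site and tie no number to a pig. Each array is called by its site and number below, and p-values measure only the spread between these arrays, which may share a pig.

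The respiratory chain passes electrons from NADH and succinate to oxygen. Complex I takes them from NADH, complex II from succinate, complex III hands them from ubiquinol to cytochrome c, and complex IV passes them to oxygen. Complexes I, III and IV pump protons across the inner mitochondrial membrane, and complex V, the ATP synthase, uses the resulting gradient to make ATP. Nuclear genes encode most subunits, mitochondrial DNA encodes the rest, and the 2 sets are assembled together. Cultured marrow stromal cells rely strongly on glycolysis and are known to raise oxidative phosphorylation as they differentiate.

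The deposited values are log2 levels normalised by RMA, with array medians between 5.63 and 5.71 and lower quartiles between 3.86 and 3.94. They carry no detection call, so a low level may be background, and probe sets differ in response, so levels are compared between arrays and never between genes. The stromal marker THY1, chosen after its values were seen, measured 10.70, 10.63 and 10.50 on the mandibular arrays and 10.63, 10.61 and 10.64 on the tibial arrays. The list of 14 stromal markers was less even, with a median range over arrays of 0.81 log2 units and 6 markers at 1 or more. Macrophage and monocyte genes were measured too, with list means from 5.03 to 6.19 on mandibular and from 5.52 to 8.52 on tibial arrays. Arrays did not follow their site labels for genes of position. HOXA7, a HOX gene of the trunk and limbs, measured 5.26, 8.40 and 5.23 on mandibular 1, 2 and 3, and 8.01, 7.92 and 5.89 on tibial 1, 2 and 3. Mandibular 2 was thus near tibial 1 and 2, and tibial 3 near mandibular 1 and 3, so results below are also given without mandibular 2 and tibial 3. Those arrays were picked from values of these same data, so p-values and calls without them are descriptive only.

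No respiratory chain gene passed the test between sites. In limma, with p-values adjusted by Benjamini-Hochberg over the 27558 probe sets of the array, 0 of 60 members were called, as were 0 (percent called: 0) of all probe sets, and the adjusted p was 0.9995 for each member. At an unadjusted p under 0.05 there was 1 member with a higher level in mandibular cultures and 0 with a lower one. Of all probe sets 1.35% were higher and 1.69% lower at that p, 3.03% in either direction. All 3 mandibular values lay above all tibial ones for 3 members (5.0%) and below them for 1 member (1.67%), against 3.35% and 3.57% of all probe sets. With counts this small, these shares lie near the background. Mandibular means were above tibial means for 37 members and below for 23, and the median difference, mandibular minus tibial, was 0.028 on the log2 scale. It was 0.0041 over all probe sets and 0.027 over those in the top quartile of mean level, where 48 of the 60 members lie and 59.1% of probe sets were above 0, against 61.7% of members. With each array centred on its median, 40 members lay above 0 and the median of all probe sets was 0.029. Without mandibular 2 and tibial 3, 0 of 60 members and 195 of all probe sets were called. In that fit 46 members lay above 0 and 14 below, and the median was 0.10 over the members and 0.021 over all probe sets. No values for probe sets of like level are given for it, so the shift cannot be called particular to the members.

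The size of any difference was bounded more tightly for these genes than for the array as a whole. The unadjusted 95% interval of the difference lay within 0.5 log2 units of 0 for 43 of 60 members (71.7%). The share was 48.8% over all probe sets and 57.4% over those in the top quartile of mean level. It was 71.7% for mitochondrial and 80.5% for cytosolic ribosomal protein genes, so this was not particular to the members. The interval lay within 1 log2 unit for 58 members (96.7%), and UQCR10 and NDUFA4L2 were the exceptions. That share was 88.0% over all probe sets and 90.8% over the top quartile. The missing calls do not show that levels were equal at both sites. Of the 26 members given with a difference below, 19 had it moved by more than 1.5 times when 1 array was left out.

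**Figure D1:**
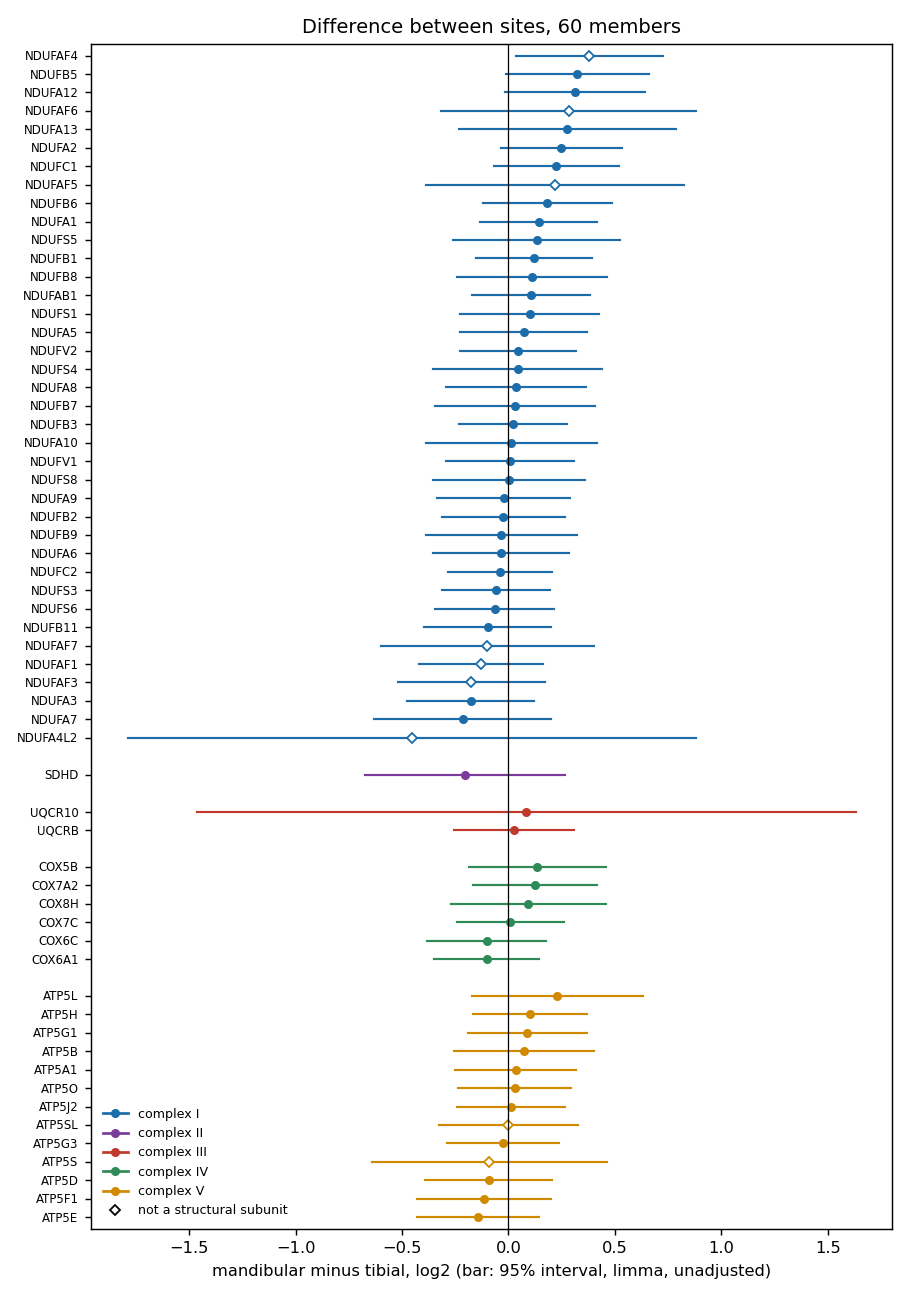
Difference between sites for each of the 60 members (mandibular minus tibial, log2, horizontal axis), grouped by complex. Points are limma estimates, bars are unadjusted 95% intervals, and open diamonds mark the 9 genes that encode no structural subunit. The interval of NDUFAF4 alone leaves out 0, and those of NDUFA4L2 and UQCR10 reach beyond 1.

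Levels of the members varied little over the 6 arrays. The median range, highest minus lowest array, was 0.38 log2 units for the members and 0.53 for all probe sets. It was under 0.5 for 44 of 60 members (73.3%), against 46.4% of all probe sets. Over all probe sets in the top quartile of mean level, the median range was 0.46 and the share under 0.5 was 55.3%. Structural subunit genes had a median range of 0.34 and the 9 other genes one of 0.73. Only NDUFAF6, NDUFA4L2 and UQCR10 had a range of 1 log2 unit or more (5.0% of members, against 16.1% of all probe sets). These values describe the spread of single arrays, and no test was made of the difference in spread.

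**Figure D2:**
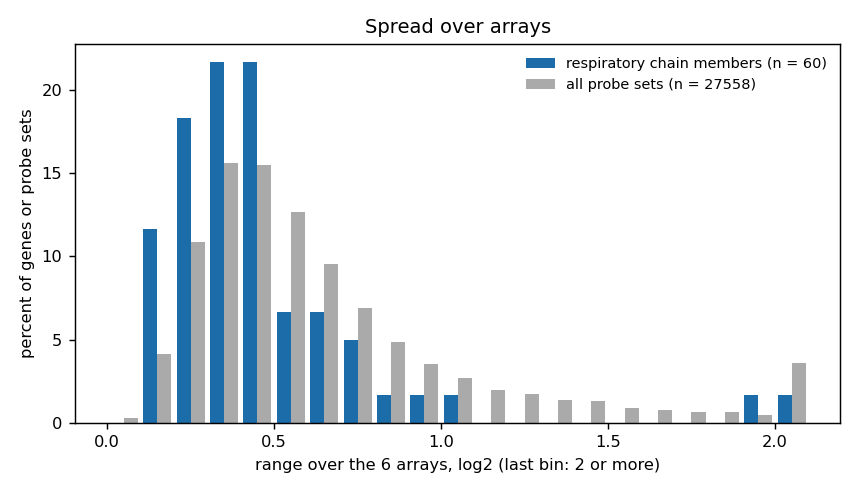
Range over the 6 arrays (log2, horizontal axis) for the 60 members and for all 27558 probe sets, as the percent of each in bins of 0.1. The last bin holds ranges of 2 or more. Members peak between 0.3 and 0.5 and UQCR10 is the member in the last bin.

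Complex I was represented by 5 core subunit genes, 26 accessory subunit genes and 7 genes outside the structure. The core genes NDUFV1 and NDUFV2, which belong to the NADH-oxidising tip, and NDUFS1, NDUFS3 and NDUFS8, which carry iron-sulphur centres or build the arm that leads to ubiquinone, all differed little between sites. Their differences ran from -0.059 to 0.099, their median was 0.0066 and each had a range over arrays under 0.5. Accessory subunits, which surround the core and stabilise it, had a median difference of 0.039, with 17 of 26 above 0. Of the 9 NDUFB genes, whose products sit in the membrane arm, 6 lay above 0 with a median of 0.031. The median over all 38 complex I members was 0.033 with all arrays and 0.12 without mandibular 2 and tibial 3.

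The members with the 5 smallest p on the higher side all belonged to complex I. NDUFAF4, an assembly factor, measured 6.96, 7.14 and 7.36 on the mandibular arrays and 6.64, 6.90 and 6.77 on the tibial arrays. All 3 mandibular values lay above all tibial ones, and the difference was 0.38 (SE 0.15), or 1.30-fold, with an unadjusted limma p of 0.036. Its interval ran from 0.033 to 0.73. NDUFB5, a membrane arm subunit gene, measured 8.18, 7.94 and 8.07 on the mandibular arrays and 7.71, 7.57 and 7.94 on the tibial arrays. The lowest mandibular and the highest tibial value met, and the difference was 0.32 (SE 0.14). NDUFA12, which encodes an accessory subunit of the matrix arm, measured 8.40, 8.66 and 8.80 on the mandibular arrays and 8.23, 8.35 and 8.34 on the tibial arrays. Its groups did not overlap, and its difference was 0.31 (SE 0.14), or 1.24-fold. NDUFA2, also of the matrix arm, measured 7.88, 8.04 and 8.12 on the mandibular arrays and 7.68, 7.76 and 7.85 on the tibial arrays. Its groups were separated by a gap far smaller than the spread within either site, with a difference of 0.25 (SE 0.12). NDUFC1, a small membrane arm subunit gene, overlapped between sites and differed by 0.22 (SE 0.12).

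Among complex I genes lower in mandibular cultures, those with the smallest p differed less. NDUFA3 and NDUFA7, accessory subunit genes, differed by -0.18 (SE 0.12) and -0.22 (SE 0.17). NDUFA7 measured 9.41, 8.81 and 9.18 on the mandibular arrays and 9.31, 9.27 and 9.47 on the tibial arrays. Mandibular 2 was low and mandibular 1 lay within the tibial values. The difference was -0.053 without mandibular 2 and 0.0067 without mandibular 2 and tibial 3, and -0.35 without mandibular 1. The assembly factor genes NDUFAF3 and NDUFAF1 differed by -0.18 (SE 0.14) and -0.13 (SE 0.12), with overlapping groups. NDUFB1 measured 10.71, 10.52 and 10.55 on the mandibular arrays and 10.51, 10.37 and 10.53 on the tibial arrays, a difference of 0.12 (SE 0.11) with overlap. NDUFA13, also known as GRIM19 and chosen after its values were seen, measured 9.51, 9.20 and 9.46 on the mandibular arrays and 9.56, 8.93 and 8.84 on the tibial arrays. Its highest value of all was on tibial 1, and the difference was 0.28 (SE 0.21), or 0.50 without tibial 1 and 0.14 without tibial 3.

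The 6 NDUFAF genes had a median range of 0.72 and the 31 structural genes of complex I one of 0.40, a difference in spread that was not tested. The 12 assembly factor genes with other symbols had a median range of 0.31. Mandibular means were above tibial means for 3 of the 6 NDUFAF genes and below for 3. NDUFAF6, chosen after its values were seen, measured 6.22, 6.58 and 6.74 on the mandibular arrays and 5.72, 6.48 and 6.49 on the tibial arrays. Tibial 1 was lowest and mandibular 1 next, and the other 4 arrays lay close together. The difference of 0.28 (SE 0.25) was 0.028 without tibial 1, 0.17 without mandibular 3 and 0.43 without mandibular 1. The tibial 1 array was also the one with the highest macrophage list mean (8.52) and the lowest cell cycle list mean (6.10), whose part in these values was not tested.

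NDUFA4L2 had the largest difference of any member and a spread to match. Its product is a paralog of NDUFA4, an NDUFA-named protein now placed in complex IV, and it is known as a target of the hypoxia-inducible factor HIF1 that lowers oxygen use. It measured 4.51, 6.42 and 4.67 on the mandibular arrays and 5.70, 6.25 and 5.01 on the tibial arrays. Mandibular 2, tibial 2 and tibial 1 were high and the other 3 arrays low, so that both sites held high and low arrays. The difference was -0.46 (SE 0.56), with an interval from -1.79 to 0.88. In single omissions it went from -1.07 without mandibular 2 and -0.78 without tibial 3 to -0.16 without tibial 2, -0.19 without mandibular 3 and -0.11 without mandibular 1. It was -1.39 (SE 0.24) without mandibular 2 and tibial 3 (limma adjusted p = 0.096, the smallest of any member in that fit). That fit left out the only high mandibular and the only low tibial array, so its p is no independent support. The low NDUFA4L2 values lay between the lower quartile and the median of the arrays and may include background.

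The arrays with high NDUFA4L2 also had the highest levels of some glycolysis genes, a group that HIF1 is known to drive in part. Mandibular 2, tibial 2 and tibial 1 were the highest 3 arrays for 5 of the 9 glycolysis genes measured (HK1, GPI, TPI1, PGK1 and LDHA) and not for the other 4 (HK2, GAPDH, ENO1 and PKM). The share of all probe sets with these 3 arrays highest was not counted, so 5 of 9 cannot be called more than the background. PGK1, a glycolytic kinase gene chosen after its values were seen, measured 10.51, 11.30 and 10.63 on the mandibular arrays and 10.96, 11.20 and 10.58 on the tibial arrays. LDHA, the lactate dehydrogenase gene chosen in the same way, measured 11.16, 12.46 and 11.95 on the mandibular arrays and 12.06, 12.25 and 11.76 on the tibial arrays. Mandibular 1 was the lowest array for PGK1 and LDHA, as for NDUFA4L2, and for 7 of the 9 glycolysis genes. The split was not particular to these genes. Mandibular 2, tibial 1 and tibial 2 were also highest for HOXA7 (8.40, 8.01 and 7.92). The same held for the macrophage list mean (6.19, 8.52 and 7.72) and the adipocyte list mean (5.47, 5.97 and 5.32). The adipocyte genes did not share it as a list, as only 2 of 6 lay above their own mean on tibial 2. Any part of HIF1 in these values was not tested.

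Complex II was represented by SDHD, which encodes a membrane anchor of succinate dehydrogenase. It measured 9.18, 8.71 and 8.82 on the mandibular arrays and 9.40, 8.82 and 9.09 on the tibial arrays. Within each site the array numbered 1 was highest and the array numbered 2 lowest, and the sites overlapped. The difference was -0.20 (SE 0.20), and in single omissions it went from -0.34 without tibial 2 or mandibular 1 to -0.11 without mandibular 2 and -0.055 without tibial 1. A second probe set for the gene measured between 3.78 and 4.61, close to the lower quartile of the arrays, and may be background. When both were averaged the difference was 0.011, a value that says little if the second holds no signal.

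Complex III was represented by UQCR10, a small accessory subunit gene, and UQCRB, whose product lies near a ubiquinone site. UQCR10 measured 6.76, 8.30 and 8.17 on the mandibular arrays and 6.33, 8.28 and 8.37 on the tibial arrays. The arrays numbered 1 were low at both sites and the other 4 lay close together, between 8.17 and 8.37, so the spread ran within the sites and not between them. The difference was 0.084 (SE 0.65), and in single omissions it went from -0.58 without tibial 1 to 0.58 without mandibular 1. UQCRB measured 8.49, 8.51 and 8.53 on the mandibular arrays and 8.52, 8.33 and 8.61 on the tibial arrays and did not share the pattern. Its difference was 0.026 (SE 0.12). Both arrays numbered 1 lay more than 1 log2 unit below all 4 others for 9 of 27558 probe sets (0.0327%), and UQCR10 was the only member among them. Another was MRPL49, a mitochondrial ribosomal protein gene, with 8.37, 9.43 and 9.55 on the mandibular arrays and 8.35, 9.66 and 9.82 on the tibial arrays.

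**Figure D3:**
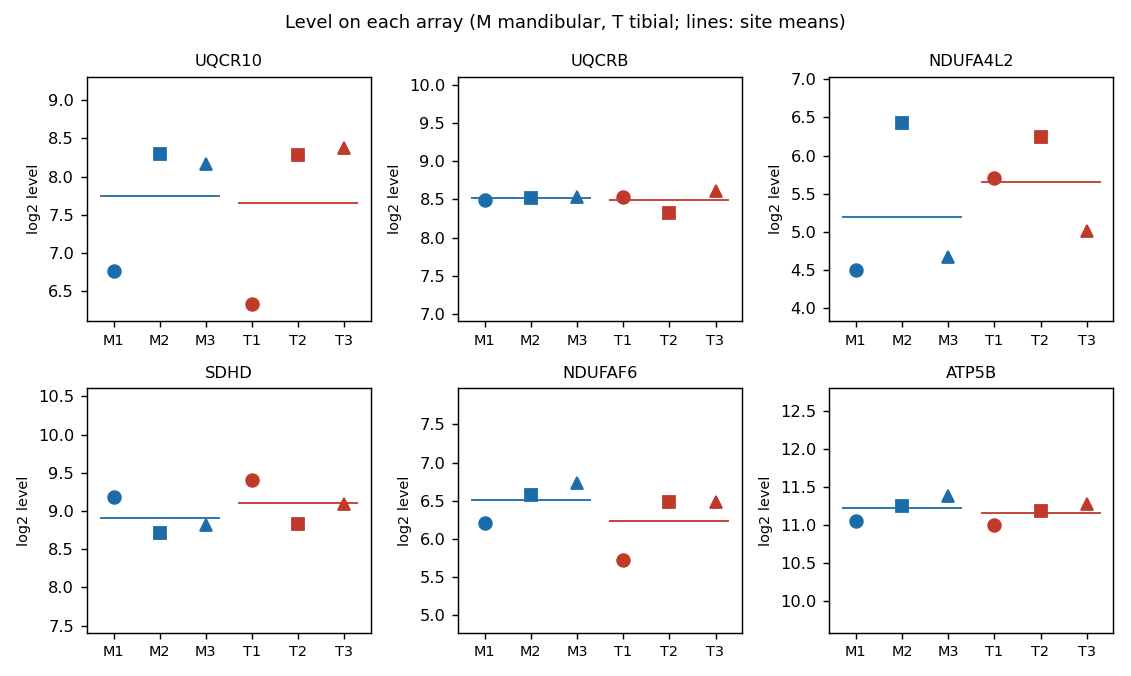
Log2 level of 6 members on each array, with mandibular arrays (M1 to M3, blue) left of tibial arrays (T1 to T3, red). Circles, squares and triangles mark the numbers 1, 2 and 3, lines are site means, and all panels span 3.2 log2 units. UQCR10 is low on both arrays numbered 1, NDUFA4L2 is high on M2, T1 and T2, and UQCRB and ATP5B stay nearly level.

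Complex IV genes were among the steadiest. All 6 had a range over arrays under 0.5, their median difference was 0.051, and all 6 intervals lay within 0.5 log2 units of 0. COX6A1, the widely expressed form of subunit 6A, measured 10.64, 10.66 and 10.66 on the mandibular arrays and 10.68, 10.82 and 10.77 on the tibial arrays. All tibial values lay above all mandibular ones, by a difference of only -0.10 (SE 0.10). COX5B, which encodes a subunit on the matrix side, differed by 0.14 (SE 0.14) and measured lowest on tibial 1, at 7.46, without which it differed by 0.036. It differed by 0.21 without tibial 2. COX7A2, the form of subunit 7A found in liver and most tissues, differed by 0.13 (SE 0.12). COX8H, the heart and muscle form of subunit 8, measured 4.45, 4.02 and 4.48 on the mandibular arrays and 4.23, 4.17 and 4.26 on the tibial arrays. These levels are close to the lower quartile of the arrays and may be background, and the difference was 0.093 (SE 0.15).

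Genes with ATP5 symbols, counted under complex V, also held nearly level. Of these 13 members, 7 lay above 0 and 6 below, with a median difference of 0.013 and a median range of 0.29. ATP5B, the catalytic beta subunit gene, measured 11.06, 11.24 and 11.38 on the mandibular arrays and 10.996, 11.18 and 11.28 on the tibial arrays. The sites overlapped almost fully, and the difference was 0.072 (SE 0.14). ATP5E, which encodes a subunit of the central stalk, differed by -0.14 (SE 0.12). ATP5L, a subunit gene of the membrane part, measured 8.24, 8.36 and 8.50 on the mandibular arrays and 8.17, 7.85 and 8.40 on the tibial arrays. Tibial 2 was low, and the difference was 0.23 (SE 0.17), or 0.085 without tibial 2 and 0.36 without tibial 3. ATP5G1 and ATP5G3, separate genes for the same mature ring subunit, differed by 0.088 (SE 0.12) and -0.027 (SE 0.11). ATP5S, which encodes coupling factor B, was the widest of these genes, with 6.49, 5.59 and 5.96 on the mandibular arrays and 6.02, 6.24 and 6.05 on the tibial arrays. Its highest and lowest values were both mandibular, and its difference was -0.090 (SE 0.23).

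On the arrays numbered 3, most members lay above their own mean over the 6 arrays. They did so for 46 of 60 members on mandibular 3 (76.7%, against 49.1% of all probe sets) and 43 on tibial 3 (71.7%, against 53.9%). The same was so for 30 and 26 members on mandibular 1 and 2, and for 20 and 26 on tibial 1 and 2. Over all probe sets the shares there were 53.3% and 44.9%, and 49.6% and 45.3%. On mandibular 3 and tibial 3, 40 and 36 of 41 cytosolic ribosomal protein genes also lay above their own mean. So did 35 and 42 of 53 mitochondrial ribosomal protein genes, and the pattern was not particular to the members. The median deviation was 0.001, -0.035 and 0.060 on mandibular 1, 2 and 3, and -0.046, -0.034 and 0.047 on tibial 1, 2 and 3. Tibial 1 held the lowest value for 21 members (35.0%, against 23.9% of all probe sets), mandibular 2 for 17 (28.3%, against 16% of all probe sets) and tibial 2 for 13. Mandibular 3 and tibial 3 held the lowest value for 2 and 1 members. The highest value was on mandibular 3 for 16 members, mandibular 1 for 15 and tibial 3 for 13, so no single array was highest for most.

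**Figure D4:**
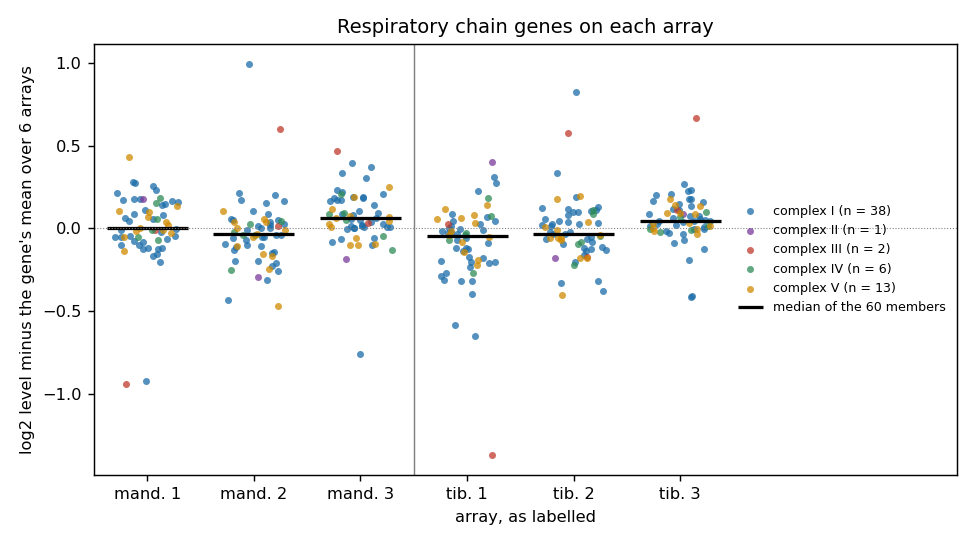
Deviation of each member from its own mean over the 6 arrays (log2, vertical axis), by array and coloured by complex, with black bars at the median of the 60 members. Medians lie between -0.046 (tibial 1) and 0.060 (mandibular 3), and the points farthest from 0 are UQCR10 and NDUFA4L2.

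Other genes of the mitochondrion were read from lists fixed with earlier results known, and in each 0 members were called. The mitochondrially encoded subunits lay above 0 in 8 of 8 measured members, with a median difference of 0.086. CYTB, of complex III, differed by 0.11 (SE 0.10) and ND2, of complex I, by 0.16 (SE 0.16), or 0.012 without tibial 1, and 6 of the 8 had their lowest value on tibial 1. Mitochondrial ribosomal protein genes had a median of 0.025, with 32 of 53 above 0, MRPS10 at 0.20 (SE 0.11) and MRPS26 at -0.25 (SE 0.15). Assembly factors outside the NDUFAF genes had a median of 0.019, with 7 of 12 above 0, NUBPL at -0.33 (SE 0.23) and ATPAF1 at 0.18 (SE 0.14). Regulators of mitochondrial biogenesis had a median of 0.066, with 8 of 10 above 0, ESRRG at 0.29 (SE 0.19) and TFB1M at 0.19 (SE 0.22). ESRRG averaged 3.72 in mandibular and 3.43 in tibial cultures, levels that may be background. Carriers and ubiquinone synthesis genes had a median of -0.020, with 4 of 9 above 0, PDSS1 at 0.23 (SE 0.20) and VDAC1 at 0.094 (SE 0.12).

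Genes that feed or accompany the chain included single differences larger than any of the members'. Citric acid cycle and pyruvate dehydrogenase genes had a median of -0.010, with 6 of 12 above 0. Among them SUCLA2, which encodes a subunit of succinyl-CoA ligase, measured 8.35, 8.76 and 8.62 on the mandibular arrays and 9.39, 9.45 and 9.01 on the tibial arrays. Its groups did not overlap, and the difference was -0.70 (SE 0.17), not called. SUCLG2, which encodes the alternative subunit of that enzyme, differed by 0.18 (SE 0.15). Fatty acid oxidation genes had a median of 0.060, with 8 of 12 above 0, ECHS1 at -0.44 (SE 0.20) and CPT1A at 0.39 (SE 0.22). Antioxidant genes had a median of -0.036, with 4 of 10 above 0 and SOD2 at -0.30 (SE 0.24), or -0.022 without tibial 1. UCP2, an inner membrane carrier gene of that list that is abundant in immune cells, measured 4.66, 5.24 and 5.24 on the mandibular arrays and 7.16, 7.22 and 4.68 on the tibial arrays. Only tibial 1 and 2 were high, and the macrophage list mean was highest on them too, a match whose part was not tested. Its difference was -1.30 (SE 0.67), and without mandibular 2 and tibial 3 it was -2.24 (limma adjusted p = 0.028). Tibial 3 was the only low tibial array and was left out on values of these same data, so that p is no independent support. Glycolysis genes had a median of -0.13, with 1 of 9 above 0, ENO1 at -0.31 (SE 0.26) and HK1 at -0.25 (SE 0.21). ENO1 went from -0.56 without tibial 1 to -0.070 without tibial 2.

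Macrophage and cell cycle genes varied far more over these arrays than the respiratory chain did. Macrophage and monocyte genes lay below 0 in 17 of 18 members, with a median of -2.14, SPI1 at -1.96 (SE 0.69) and CD14 at -0.77 (SE 0.29). Their list mean was 5.03, 6.19 and 5.06 on the mandibular arrays and 8.52, 7.72 and 5.52 on the tibial arrays. In such bulk samples fewer cells of a type and less RNA per cell cannot be told apart. Cell cycle genes lay above 0 in 9 of 9 members, with a median of 1.00, MYBL2 at 1.08 (SE 0.50) and TPX2 at 1.22 (SE 0.57), and their list mean was highest on mandibular 3 (8.42) and tibial 3 (8.03). Cytosolic ribosomal protein genes had a median of 0.035, with 27 of 41 above 0, RPL22 at -0.32 (SE 0.16) and RPL21 at 0.17 (SE 0.14). Stromal markers had a median of -0.10, with 4 of 14 above 0, ENG at 0.52 (SE 0.23) and VCAM1 at -2.55 (SE 1.31). Skeletal muscle genes had a median of 0.078, with 4 of 7 above 0, MYH7 at 0.47 (SE 0.20) and MYL1 at 0.65 (SE 0.65). Adipocyte genes had a median of -0.063, with 3 of 6 above 0, LEP at 0.12 (SE 0.11) and LPL at -1.93 (SE 1.96), which was -0.51 without tibial 1 and -3.80 without tibial 3. The respiratory chain members thus had a median range of 0.38 log2 units where the macrophage list had 3.91 and the cell cycle list 2.26. Mitochondrial and cytosolic ribosomal protein genes had median ranges of 0.38 and 0.39, near that of the members.

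**Figure D5:**
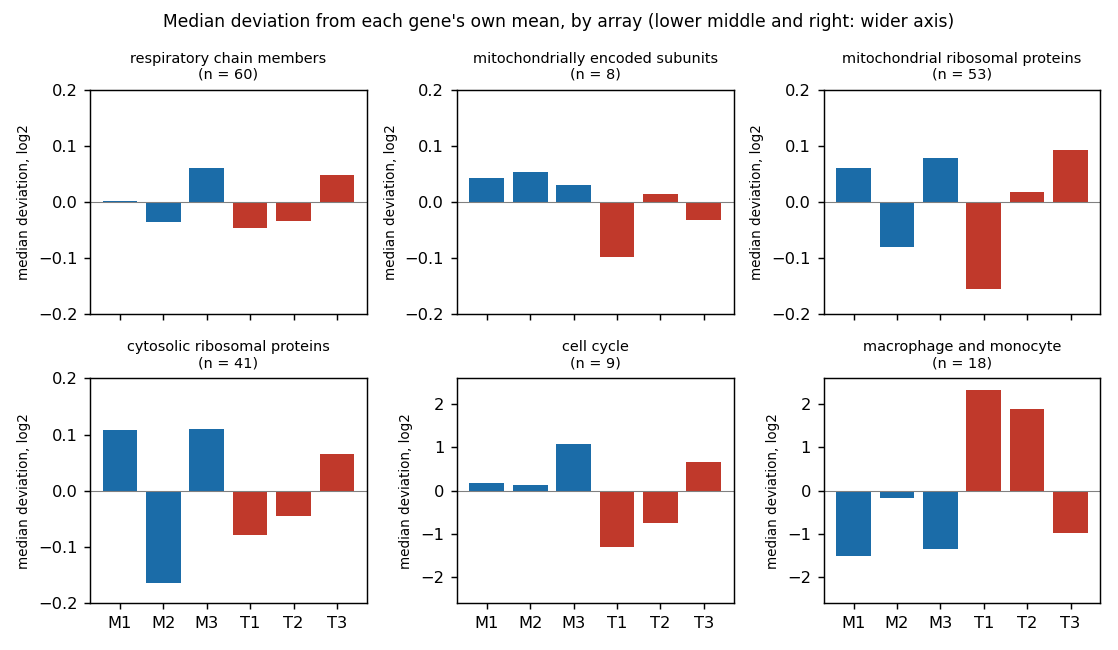
Median deviation of a list's genes from their own 6-array means (log2, vertical axis) on each array, mandibular (M1 to M3, blue) left of tibial (T1 to T3, red). The first 4 panels span 0.2 to either side of 0, and those of cell cycle and macrophage genes span 2.6. Respiratory chain members and ribosomal protein genes are above 0 on M3 and T3, while the macrophage list reaches 2.34 on T1. Both ribosomal protein lists are also above 0 on M1, and the mitochondrially encoded subunits are below 0 on T3.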

How the data were processed

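The deposited file holds log2 levels of 27558 probe sets on 6 arrays, which the authors made by RMA, with Transcriptome Analysis Console 3.0 and Affymetrix Expression Console named in the submitters' processing notes. RMA equalises the distributions of the arrays, so a shift shared by all genes would have been removed. For the genome build and settings the sources used here name none, so no coordinates are printed. GEO's platform annotation named 13157 probe sets with 1 symbol, 523 with several and 13878 with none. The members had 65 probe sets, none left out as low, and COX7A2 and NDUFS8 each had 2 with identical values.

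Differences were fitted on all probe sets with lmFit and eBayes of limma 3.58.1 (R version 4.3.3), unpaired, two-sided, with Benjamini-Hochberg adjustment and a threshold of 0.05. The fit was tested on simulated data, in 5 runs with 200 changed probe sets each. It recovered 84.2% of changes of 2 log2 units and 41.9% of changes of 1 log2 unit. On average 6.2 unchanged probe sets were called. Changes under 1 log2 unit, such as those of the members, were not simulated. Alternatives were array centring, the replicate block, trend and robust moderation, array weights, a filter on low levels, the mean over a gene's probe sets, structural subunits only, and omitted arrays.

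Members, lists and rules were chosen with earlier results of these data known. Members given with values were, per complex, those with the highest and lowest mean, the largest differences and the largest range, those with the 5 smallest p in each direction, and paralogs. In each list, 2 genes with the smallest p were given. The planned search of promoters for motifs was not run.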

Additional observations from a re-analysis of the deposited data

How the results depend on the processing

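Under every alternative run, 0 of 60 members were called. Over all probe sets limma called 0 with all arrays and 0 to 2 in single omissions (1 without tibial 1, 2 without tibial 3), and 195 without mandibular 2 and tibial 3. In that last fit the median of complex I was 0.12, against 0.033 with all arrays, and the members' median was 0.10. In single omissions the members' median ranged from -0.013 to 0.072. Deviations of same-numbered arrays from their site means correlated at -0.033, 0.21 and 0.47 over all probe sets for numbers 1, 2 and 3, not above 0.1 for each, so pairing was not assumed. Over the members alone they correlated at 0.57, 0.56 and 0.77, and without UQCR10 at 0.24, 0.48 and 0.71, so the value for number 1 rested largely on that gene. With the replicate number as a block, 0 probe sets and 0 members were called. The members' median stayed at 0.028, as a block cannot change a difference in this balanced design. Intervals lay within 0.5 of 0 for 42 members, against 43 unpaired. Single omissions moved 19 of 26 printed member differences and 25 of 30 printed list gene differences by more than 1.5 times, and tibial 1 alone did so for 9 and 15 of them. Directions were not stable for the smallest differences: 30 of 60 members changed sign under at least 1 of 13 alternatives, none with a difference above 0.22. The block, trend and robust moderation and the low-level filter could change no sign, as they left each member's difference unchanged. Single omissions gave -0.0062 to 0.16 for ATP5B, -0.065 to 0.020 for ATP5G3, -0.33 to 0.12 for ATP5S, -0.58 to 0.58 for UQCR10, -0.054 to 0.088 for UQCRB, -0.028 to 0.33 for TFB1M and -0.0011 to 1.29 for MYL1. Array weights turned ATP5G3 to 0.0043 and UQCR10 to -0.10. Without mandibular 2 and tibial 3, ATP5G3 was 0.014, ATP5S 0.097 and NDUFA7 0.0067. The mean over probe sets, with a second SDHD probe set that may be background, turned SDHD to 0.011. The cause was not tested. With 3 arrays a site and no detection calls, small differences and low levels are poorly resolved.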
